A study of Mus musculus with 3 samples.

Results

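Of 24639 non-overlapping windows of 100 kb on the mouse autosomes, 921 still had a pooled CpG methylation level of at least 0.5 in spermatogonia without DNMT3L. The windows were chosen by this level itself, among the 23820 windows that had 100 calls or more in all 3 libraries, and they made up 3.87% of these eligible windows. A level is the number of methylated calls divided by all calls of a window. The libraries were prepared from genomic DNA of spermatogonia sorted with an antibody against EpCAM at postnatal day 7, all labelled as strain C57BL6/J, with 1 library for WT, 1 for Pld6 KO and 1 for Dnmt3L KO. The mutant lines had been backcrossed to C57BL/6J, and according to the methods the WT category could include mice heterozygous for either mutation. The methods mention biological replicates, and whether a file analysed here holds cells of a single animal or of several is not stated in the sources used. Each file was taken as 1 library. With a single file for each genotype, effects of the genotype and of the library cannot be told apart, and no test was made between them.

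DNMT3L has no catalytic activity of its own and works as a cofactor of DNMT3A, an enzyme that sets new methylation in prospermatogonia before birth. DNMT3A binds chromatin through a domain that recognises methylation of lysine 36 of histone H3, a mark that is laid down along transcribed genes and, in another form, over broader regions. CpG islands at gene starts usually stay without methylation. PLD6 is a mitochondrial outer membrane protein needed for the biogenesis of piRNAs, the small RNAs that guide methylation to retrotransposons in the same cells.

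The libraries held 19289688 calls in Dnmt3L KO, 43757722 in WT and 64076569 in Pld6 KO, so that Dnmt3L KO, which chose the windows, was also the shallowest. In the Pld6 KO library, 62 of the 135 CpG sites in the Pld6 gene and 1 kb on each side were called, against 120 in WT and 76 in the shallower Dnmt3L KO library. Calls at the Dnmt3l gene were not depleted in the Dnmt3L KO library, with 16.5 per 1000000 autosomal calls against 16.0 in WT, so that coverage gave no check of this label. The start of Kcnq1ot1, which is unmethylated in male germ cells and methylated on the maternal copy in somatic cells, had a level of 0.0248 in Dnmt3L KO, 0.134 in WT and 0.0689 in Pld6 KO. The Dnmt3L KO library therefore had the lowest level of the 3 at this mark of somatic cells.

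Sequences from inside and from just upstream of 4 genes are shown to set the body of a gene in a chosen window beside its start. Rptor encodes raptor, the scaffold of the mTORC1 kinase complex, Mapkap1 a subunit of mTORC2, Mad1l1 a protein of the spindle checkpoint, and Fyn a tyrosine kinase of the Src family. They are the main genes of the 4 windows with the highest Dnmt3L KO level among those with at least 500 calls. For each, the 200 bases within an intron that held the most CpG sites called in all 3 libraries are printed, followed by the 200 bases before the annotated gene start. The build is GRCm38, the reading is 5′ to 3′ on the strand of the gene, and capitals mark the CpG sites.
Rptor intron, chr11:119841357-119841556, plus strand: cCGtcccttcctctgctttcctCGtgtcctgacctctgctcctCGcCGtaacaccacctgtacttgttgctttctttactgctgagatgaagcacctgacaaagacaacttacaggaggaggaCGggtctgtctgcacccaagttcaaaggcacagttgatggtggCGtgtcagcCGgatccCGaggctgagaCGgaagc
Rptor upstream of the start, chr11:119602705-119602904, plus strand: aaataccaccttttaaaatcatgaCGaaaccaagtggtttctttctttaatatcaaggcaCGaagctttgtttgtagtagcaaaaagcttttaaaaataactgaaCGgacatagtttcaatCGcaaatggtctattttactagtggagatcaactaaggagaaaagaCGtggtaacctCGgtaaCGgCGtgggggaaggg
Mapkap1 intron, chr2:34535150-34535349, plus strand: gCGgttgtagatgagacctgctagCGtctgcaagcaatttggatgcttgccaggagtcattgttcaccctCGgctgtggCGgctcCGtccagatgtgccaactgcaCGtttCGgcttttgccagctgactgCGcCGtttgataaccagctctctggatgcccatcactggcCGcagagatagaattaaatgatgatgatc
Mapkap1 upstream of the start, chr2:34406571-34406770, plus strand: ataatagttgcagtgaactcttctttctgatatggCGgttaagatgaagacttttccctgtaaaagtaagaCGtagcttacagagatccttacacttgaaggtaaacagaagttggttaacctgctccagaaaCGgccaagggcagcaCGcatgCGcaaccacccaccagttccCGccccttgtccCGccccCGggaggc
Mad1l1 intron, chr5:140199282-140199481, minus strand: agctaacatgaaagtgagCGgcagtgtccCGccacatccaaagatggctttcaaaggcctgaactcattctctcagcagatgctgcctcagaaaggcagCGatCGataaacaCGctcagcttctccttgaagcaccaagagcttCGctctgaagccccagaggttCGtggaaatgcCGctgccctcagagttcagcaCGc
Mad1l1 upstream of the start, chr5:140321553-140321752, minus strand: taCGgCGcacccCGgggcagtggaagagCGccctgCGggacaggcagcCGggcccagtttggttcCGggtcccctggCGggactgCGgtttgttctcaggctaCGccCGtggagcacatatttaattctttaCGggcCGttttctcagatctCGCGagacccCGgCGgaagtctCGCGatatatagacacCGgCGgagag
Fyn intron, chr10:39413012-39413211, plus strand: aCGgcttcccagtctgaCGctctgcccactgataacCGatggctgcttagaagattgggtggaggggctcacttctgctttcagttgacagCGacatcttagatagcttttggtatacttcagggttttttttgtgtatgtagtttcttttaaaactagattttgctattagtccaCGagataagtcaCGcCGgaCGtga
Fyn upstream of the start, chr10:39368655-39368854, plus strand: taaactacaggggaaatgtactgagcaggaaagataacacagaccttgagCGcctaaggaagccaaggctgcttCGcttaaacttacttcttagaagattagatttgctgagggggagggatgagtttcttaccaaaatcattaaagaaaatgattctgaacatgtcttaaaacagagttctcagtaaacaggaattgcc

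The intronic stretches were methylated in all 3 libraries. In Rptor, 13 of 15 calls were methylated in Dnmt3L KO, 24 of 25 in WT and 47 of 49 in Pld6 KO. The Mapkap1 stretch had 16 of 21, 30 of 31 and 47 of 54 methylated calls in the same order, that of Mad1l1 17 of 22, 30 of 32 and 24 of 26, and that of Fyn 12 of 14, 23 of 23 and 33 of 37. Upstream of the starts no methylated call was found in WT or in Dnmt3L KO. The Dnmt3L KO calls there numbered 13 at Rptor, 24 at Mad1l1, 5 at Mapkap1 and 6 at Fyn, which allows a level of up to 0.231, 0.125, 0.6 and 0.5 (3 calls of the total). In Pld6 KO, 2 of 32 calls were methylated upstream of Mapkap1 and 2 of 6 upstream of Fyn. The Fyn and Mapkap1 stretches are therefore too thinly covered to place their Dnmt3L KO level. Since the intronic stretches lie in windows chosen for a high Dnmt3L KO level, their values are a description.

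The chosen windows were among the more methylated windows of the WT genome, and in Dnmt3L KO they retained a median of 0.617 of their WT level. Their Dnmt3L KO level had a median of 0.535 (SD 0.0349, n = 921 windows) and reached 0.671, while the median of all eligible windows was 0.274. The WT level had a median of 0.894 (SD 0.0454), against 0.763 over the eligible windows. Gene windows that were not chosen lay between these. The 3373 eligible windows over 99% in protein-coding gene spans and under the threshold had a median WT level of 0.839. The ratio of Dnmt3L KO to WT was 0.375 in the median of the eligible windows, and it lay between 0.540 and 0.765 in every chosen window. No chosen window had a Dnmt3L KO level at or above its WT level. A level of this size in a bulk sample does not tell whether some cells were fully methylated or all cells partly.

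A WT level of at least 0.85 was found in 708 of the 921 windows (76.9%), against 17.9% of the eligible windows. The level fell by at least 0.3 from WT to Dnmt3L KO in 699 (75.9%), against 90% of the eligible windows. Since the rule put a floor under the Dnmt3L KO level, nothing is read from this smaller share. The median difference was 0.340, against 0.469 over the eligible windows.

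**Figure D1:**
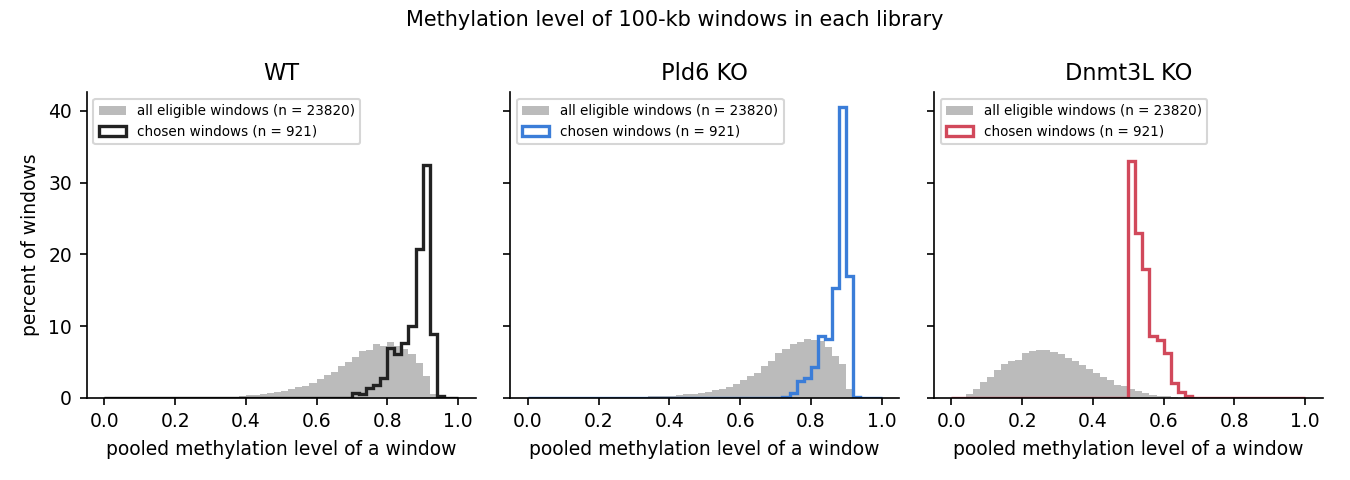
Distribution of the pooled methylation level (x axis, fraction) of 100-kb windows in each of the 3 libraries, as the percent of windows in steps of 0.02. Grey bars are the 23820 eligible windows and coloured lines the 921 windows chosen for a Dnmt3L KO level of at least 0.5. In WT and Pld6 KO the chosen windows gather near 0.9, while the eligible windows spread around 0.76.

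The precision of the Dnmt3L KO level is set by depth. A chosen window held 254 to 2022 Dnmt3L KO calls, with a median of 1016, against 659 over the eligible windows. Of the 921 windows, 489 had a lower 95% Wilson bound of at least 0.5, and these intervals cover counting error only and take calls as independent. When windows were chosen on the odd-numbered 1-kb blocks and read on the even-numbered ones, 1009 windows were chosen and their median Dnmt3L KO level was 0.521. The 3 members just inside the threshold, all at exactly 0.5, were windows in Taf4b, Cep83 and Prdm15, with 406, 490 and 906 Dnmt3L KO calls. The 3 eligible windows just outside it lay in Mtss1, Gsg1l and Lrp6, at 0.4997, 0.4995 and 0.4995. The chosen windows therefore shade into those just outside without a gap.

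In Pld6 KO, the chosen windows had nearly their WT level. The median was 0.885 (SD 0.0355), against 0.762 over the eligible windows, and in 602 of the 921 windows it was under the WT level, against 11093 of the 23820 eligible windows. The difference from WT had a median of -0.00695, against 0.00310 over the eligible windows. A level lower by at least 0.05 was found in 4 windows (0.434%), against 11.4% of the eligible windows. A level higher by at least 0.05 was found in 8 (0.869%), against 10.6%. The chosen windows thus held fewer large differences of either sign per window than the eligible windows did. Small differences were not particular to them. In windows over 99% in gene spans and under the threshold, the median Pld6 KO level was 0.836. The difference from WT there had a median of -0.00282 and quartiles of -0.0190 and 0.0172, against quartiles of -0.0176 and 0.00475 in the chosen windows. The chosen windows also held more calls, with a median of 2487 in WT and 3858 in Pld6 KO, against 1446 and 2105 over the eligible windows.

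The window with the largest rise in Pld6 KO was the window of Pld6 itself on chromosome 11, from 59700001 to 59800000, which is named here after its values were seen. It lies mostly in Mprip, a gene for a myosin phosphatase partner. The window had 0.556 in Dnmt3L KO, 0.848 in WT and 0.912 in Pld6 KO. Without the Pld6 gene and 1 kb on each side, it was 0.911 in WT and 0.914 in Pld6 KO. The remaining Dnmt3L KO level was 0.605. The rise therefore lay in the stretch in which sites were missing from the Pld6 KO library.

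The window with the largest fall in Pld6 KO, also named after its values were seen, lay in Galnt10, which encodes an enzyme that starts mucin-type glycosylation. This window had 0.522 in Dnmt3L KO, 0.897 in WT and 0.789 in Pld6 KO, which was lower in 9 of its 10 pieces of 10 kb. This window ends 1.98 Mb before Pld6. Among the 7 chosen windows within 5 Mb of Pld6, apart from that of Pld6, it was the only window lower by 0.05 or more. The window before it, which was not chosen, had 0.797 in WT and 0.709 in Pld6 KO. The window after it had 0.451 and 0.448. Of the eligible windows within 5 Mb of Pld6, 14 of 99 were lower by 0.05 or more. Of the other eligible windows on chromosome 11, 87 of 1090 were. The part of the nearby mutation in these values was not tested. The other 3 chosen windows lower by at least 0.05 lay in Cdk5rap2, Adk and Myo9a, at -0.0698, -0.0572 and -0.0502.

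Nearly all chosen windows lay within genes. Protein-coding gene spans covered a median of 100% of a chosen window, against 33.8% of an eligible window. In 576 windows (62.5%) the cover was over 99%, which held for 16.6% of the eligible windows, and 524 windows lay wholly inside a single gene. Among all windows over 99% in gene spans, 14.6% were chosen (95% Wilson interval of the share up to 15.7%). Among the 13694 eligible windows with under 50% cover, 26 were chosen, which is 0.190%. Gene starts were sparse, and 700 chosen windows (76.0%) held none, against 58.3% of the eligible windows. The share of windows chosen was 5.04% where no protein-coding gene started and 0.366% where 4 or more started.

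Of the 10 chosen windows without any protein-coding gene, 6 were covered to 56.1% or more by the span of a long noncoding transcript. A noncoding gene over 50% or more was found in 8.43% of the 8413 eligible windows without a protein-coding gene. Lncpint, a noncoding gene that p53 induces, covered the whole window from 31100001 to 31200000 on chromosome 6, with 0.605 in Dnmt3L KO, 0.885 in WT and 0.894 in Pld6 KO. Pvt1, the noncoding gene beside Myc, covered a window on chromosome 15 with 0.523, 0.913 and 0.889 in the same order. The noncoding genes 2610035D17Rik and 2610307P16Rik covered the others, 2 windows on chromosome 11 and 2 on chromosome 13. The 4 remaining windows had a noncoding gene or pseudogene over 14.5% or less of their length, or none, as in a window on chromosome 15 from 74400001 with 0.558 in Dnmt3L KO, 0.820 in WT and 0.770 in Pld6 KO. The annotation of noncoding genes is less complete than that of coding ones, and no transcript was measured here.

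The chosen windows were also rich in GC. Their GC content had a median of 45.4% (SD 3.38), against 41.5% over the eligible windows, and their CpG density a median of 10.8 sites per kb (SD 2.91), against 7.82. Repeats, taken as the soft-masked bases, covered a median of 21.3% (SD 5.93), against 31.6%. The share of windows chosen was 0.251% in the decile of lowest GC content, from 33.5% to 37.2%, and 10.3% in the decile of highest, from 47.6% to 58.9%. In the decile with the fewest repeats 18.1% were chosen, in the decile with the most none of 2382.

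Gene cover and GC content each went with the share of windows chosen when the other was held. Among windows over 99% in gene spans, the share rose from 1.36% in the decile of lowest GC content to 41.1% in the 9th decile and was 33.7% in the highest. Among windows without a protein-coding gene it was 0 of 1637 in the lowest decile and 5 of 171 in the highest, 2.92%. A GC-rich window outside genes was thus rarely chosen, and so was a gene window of low GC content. Depth moved with GC content as well, since GC-rich windows hold more CpG sites and so more calls, and its part in these shares was not tested.

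**Figure D2:**
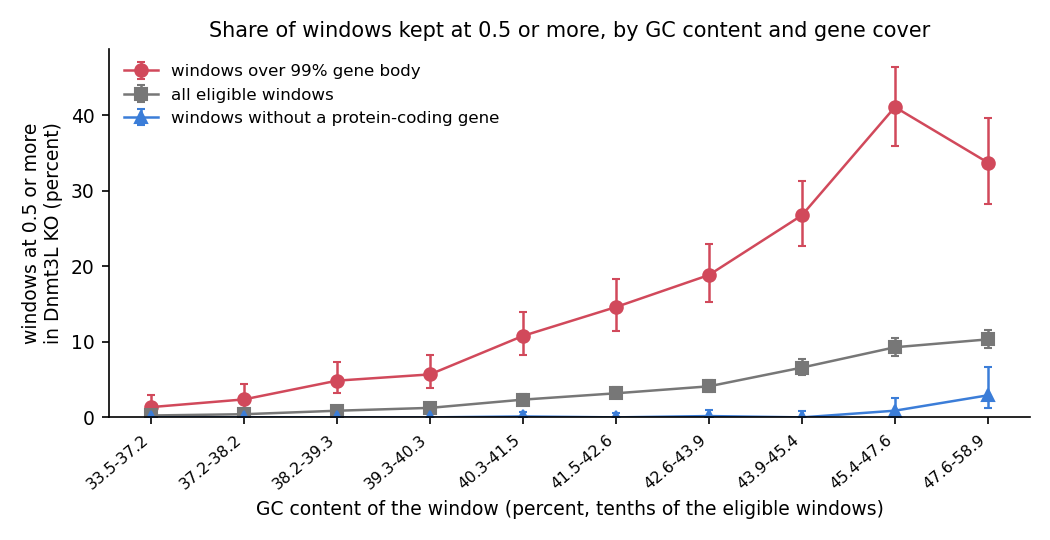
Percent of 100-kb windows at 0.5 or more in Dnmt3L KO (y axis) in deciles of the GC content of the eligible windows (x axis, percent), with 95% Wilson intervals on the number of windows. Windows over 99% in protein-coding gene spans rise from 1.36% to 41.1% in the 9th decile, while windows without a protein-coding gene stay at or under 2.92%.

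The WT and Pld6 KO levels of the 921 windows went together (Pearson's r = 0.923), as they did over the 23820 eligible windows (0.924). Windows share libraries and base composition with their neighbours, so that these values are a description.

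The 12 chosen windows with the highest Dnmt3L KO level among those with at least 500 calls lay in 9 genes and had no more than 1 gene start each. Rptor held the window at the top, from 119800001 to 119900000 on chromosome 11, with 0.671 in Dnmt3L KO (95% interval 0.644 to 0.698, 1165 calls), 0.924 in WT and 0.900 in Pld6 KO. Mapkap1 followed on chromosome 2 at 0.664 (0.633 to 0.695), with 0.913 in WT and 0.896 in Pld6 KO. The intervals of these windows overlap widely, so that their order is not resolved. Mad1l1 supplied 3 adjoining windows on chromosome 5, at 0.654, 0.648 and 0.636 in Dnmt3L KO and between 0.915 and 0.922 in WT. Fyn on chromosome 10 had 0.653 in Dnmt3L KO, 0.892 in WT and 0.887 in Pld6 KO.

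The others of these 12 windows lay in 5 further genes and in Rptor. Agap1 and Asap1, which encode GTPase-activating proteins for Arf, had 0.651 and 0.644 in Dnmt3L KO. Tns3, a tensin of focal adhesions, had 0.641, Ralgps1, an exchange factor for Ral, 0.639, and Dip2b 0.639. A further window of Rptor had 0.642. WT levels in these 6 windows lay between 0.899 and 0.918 and Pld6 KO levels between 0.891 and 0.911. All 12 windows were thus close to 0.9 in both other libraries.

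The 5 chosen windows with the lowest WT level had a different makeup. They lay in Agap1, Arhgap17, Kdm4b, St3gal3 and Uvrag, with WT levels from 0.703 to 0.710, Pld6 KO levels from 0.747 to 0.772 and Dnmt3L KO levels from 0.501 to 0.534. The Agap1 window, at 0.703 in WT and 0.534 in Dnmt3L KO, differed by 0.168, the smallest difference of all 921. It adjoins the Agap1 window at 0.902 in WT and 0.651 in Dnmt3L KO among the 12 highest, so that the WT level changed by about as much between these 2 windows as between the lowest and the median chosen window. The other 4 windows held 2 or 3 protein-coding gene starts each. Kdm4b encodes a demethylase of histone H3, and its window also holds Uhrf1, whose product brings the maintenance methyltransferase to replicating DNA.

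Levels within the chosen windows followed the annotation. CpG sites in gene spans had a pooled Dnmt3L KO level of 0.554 and those outside them 0.417, a difference of 0.137 (95% interval 0.133 to 0.140, counting error only). In WT and Pld6 KO, introns had 0.894 and 0.885, and sites outside all genes 0.854 in both. By class, introns had 0.565 in Dnmt3L KO, exons 0.543, sites in other annotated genes 0.489 and sites outside genes 0.437. Promoters, taken as 1 kb on each side of a protein-coding gene start, had 0.0608 in Dnmt3L KO, 0.112 in WT and 0.142 in Pld6 KO. With promoter sites left out, protein-coding gene spans had 0.563 in Dnmt3L KO and sites outside them 0.448, a smaller contrast. In the other eligible windows, introns had 0.395 and sites outside genes 0.262 in Dnmt3L KO. The sites outside genes in chosen windows were thus above the introns of the other windows in Dnmt3L KO, a contrast that the rule on the whole window bears on directly.

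Repeats within gene bodies had the level of their surroundings in Dnmt3L KO. In the chosen windows, soft-masked sites in gene bodies had 0.562 in Dnmt3L KO and the other gene-body sites 0.563. In WT the values were 0.900 and 0.892. In Pld6 KO they were 0.864 and 0.886, so that the gap between them was largest in this library. Lower repeats in Pld6 KO were not particular to the chosen windows. In the other eligible windows, gene-body repeats had 0.790 in Pld6 KO and 0.815 in WT, and the other gene-body sites 0.799 and 0.782. Outside protein-coding genes the repeats of the chosen windows had 0.435 in Dnmt3L KO and the other sites 0.4499.

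The methylation level was lowest in the classes of highest local CpG density, in chosen and other eligible windows. For each gene-body site outside promoters, the other CpG sites within 250 bases were counted. In the chosen windows the Dnmt3L KO level was 0.577 with 0 to 2 such sites, 0.580 with 3 to 5, 0.569 with 6 to 10 and 0.521 with 11 to 20. It was 0.2996 with 21 to 30 and 0.0186 with 31 or more. WT had 0.895, 0.899, 0.903, 0.887, 0.629 and 0.0332 in the same classes. The densest gene-body sites of the chosen windows were thus low in WT as well. In the other eligible windows, the Dnmt3L KO level was 0.421 with 0 to 2 such sites and 0.279 with 11 to 20. It was 0.0717 there with 21 to 30 and 0.00903 with 31 or more.

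**Figure D3:**
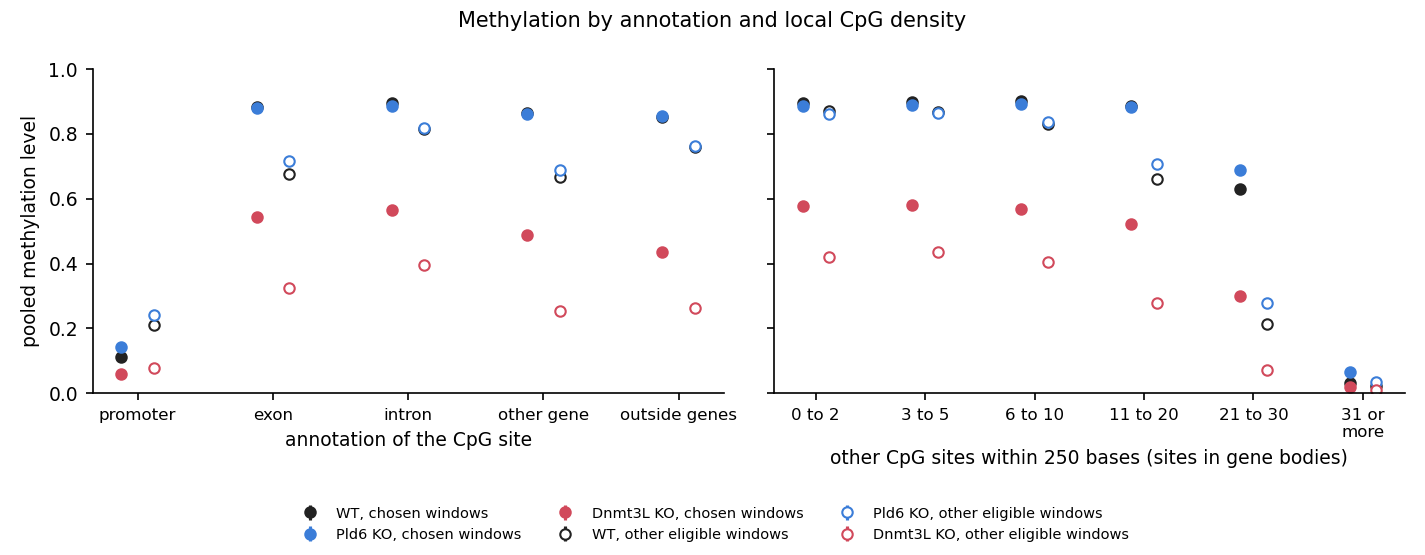
Pooled methylation level (y axis, fraction) of CpG sites in chosen windows (filled) and other eligible windows (open), by annotation (left) and, for gene-body sites, by the number of other CpG sites within 250 bases (right), in 1 library per genotype with 95% Wilson intervals that are mostly smaller than the symbols. In chosen windows the Dnmt3L KO level is 0.565 in introns and 0.0608 at promoters, and stays above 0.5 up to 20 neighbouring sites.

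At a scale of 10 kb the retained methylation was spread over the chosen windows rather than held in a few pieces. Of 9179 pieces of 10 kb that held 20 calls or more in every library, 73.8% were at 0.5 or more in Dnmt3L KO, with a median of 0.559 and quartiles of 0.493 and 0.616, and 1.10% were under 0.2. Of the pieces wholly in gene spans, 78.3% were at 0.5 or more. Of the 432 pieces in no gene span, 39.6% were, with a median of 0.473 in Dnmt3L KO, 0.888 in WT and 0.879 in Pld6 KO. In the other eligible windows 12.02% of all pieces and 26.4% of those wholly in gene spans were at 0.5 or more. A piece carries few calls, and part of this spread is counting error. The pieces hold the same calls by which the windows were chosen. Their shares, and the gap to the other windows, are therefore a description that the rule bears on directly.

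The level changed around both ends of genes, at the gene end over several kb. For 385 protein-coding genes of at least 100 kb with 50% or more of their span in chosen windows, the Dnmt3L KO level was 0.336 from 10 to 2 kb before the start, 0.0383 within 2 kb of it, 0.466 from 2 to 10 kb into the gene and 0.542 from 10 to 50 kb. It was 0.569 in the stretch from 50 to 10 kb before the gene end, 0.516 in the last 10 kb, 0.359 in the first 10 kb beyond the end and 0.292 from 10 to 50 kb beyond it. Sites beyond a gene were used only where no other protein-coding gene lay. The step at the gene end was smaller in WT, from 0.899 to 0.780 and 0.691, and in Pld6 KO, from 0.887 to 0.798 and 0.724.

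The flanks of these genes were also above those of other long genes, by less than the bodies were. For the 1987 other genes of at least 100 kb, the Dnmt3L KO level was 0.295 from 10 to 2 kb before the start, 0.373 from 10 to 50 kb into the gene and 0.267 from 10 to 50 kb beyond the end. The genes in chosen windows thus stood above them by 0.169 inside. Outside, the differences were 0.0432 from 50 to 10 kb and 0.0413 from 10 to 2 kb before the start, 0.0583 in the first 10 kb beyond the end and 0.0251 from 10 to 50 kb beyond it. The inside values were used by the rule, and the flanks share windows with the gene ends in part.

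**Figure D4:**
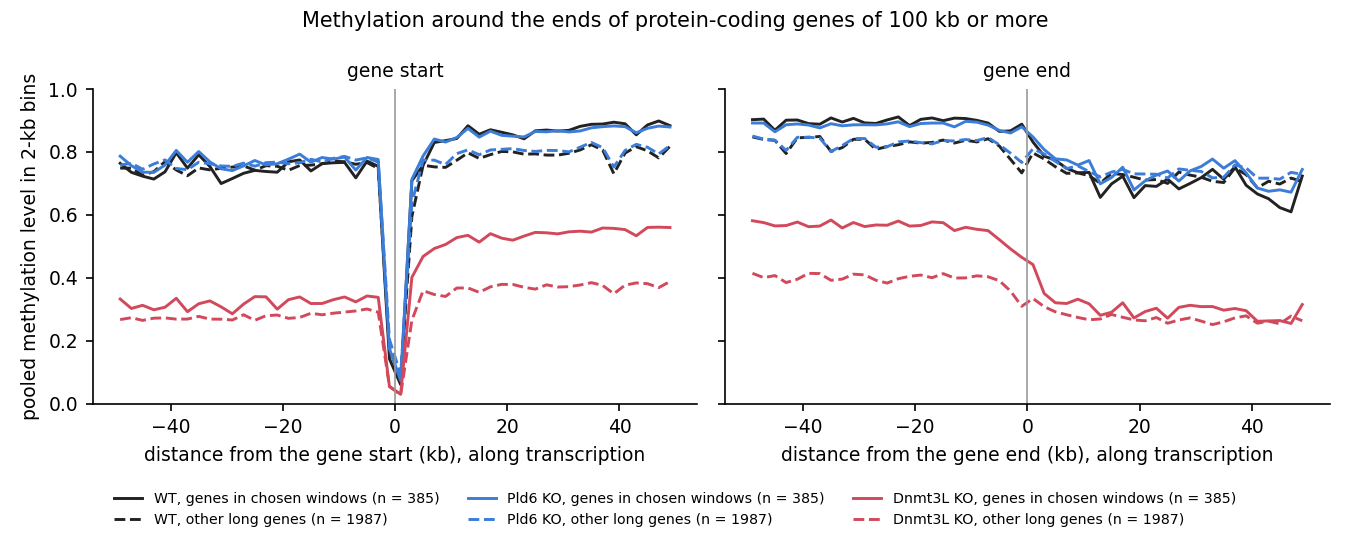
Pooled methylation level in 2-kb bins (y axis, fraction) against the distance from the gene start (left) and gene end (right) in kb along transcription, for protein-coding genes of at least 100 kb with 50% or more of their span in chosen windows (solid, n = 385) and all other such genes (dashed, n = 1987). In Dnmt3L KO the solid line runs at 0.542 from 10 to 50 kb into the gene and drops to 0.292 from 10 to 50 kb beyond its end, where the dashed line is at 0.267.

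Rptor and Slit3 differed in how far their flanks lay under their bodies. Along Rptor, which spans 297 kb, all 28 pieces of 10 kb at least 10 kb from its ends were above 0.5 in Dnmt3L KO, from 0.507 to 0.759. In the 200 kb before its start and the 200 kb after its end, where other genes lie, the pieces ranged from 0.114 to 0.717 and from 0.222 to 0.769. The medians there were 0.532 and 0.541, against 0.634 inside, so that the flanks of Rptor held low and high pieces side by side. Slit3, which encodes a secreted ligand of Robo receptors, had a median of 0.561 over 57 inner pieces, from 0.374 to 0.697. Before its start the median was 0.345 in Dnmt3L KO. WT had 0.882 before the start and 0.896 inside, a smaller step. After the end of Slit3 the Dnmt3L KO median was 0.482. Many pieces before the start of Rptor and after the end of Slit3 lay in other chosen windows. Those medians therefore draw in part on windows picked for a high Dnmt3L KO level. The pieces in the 200 kb before Slit3 and after Rptor lay outside chosen windows. The part of this in the difference between the genes was not tested.

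**Figure D5:**
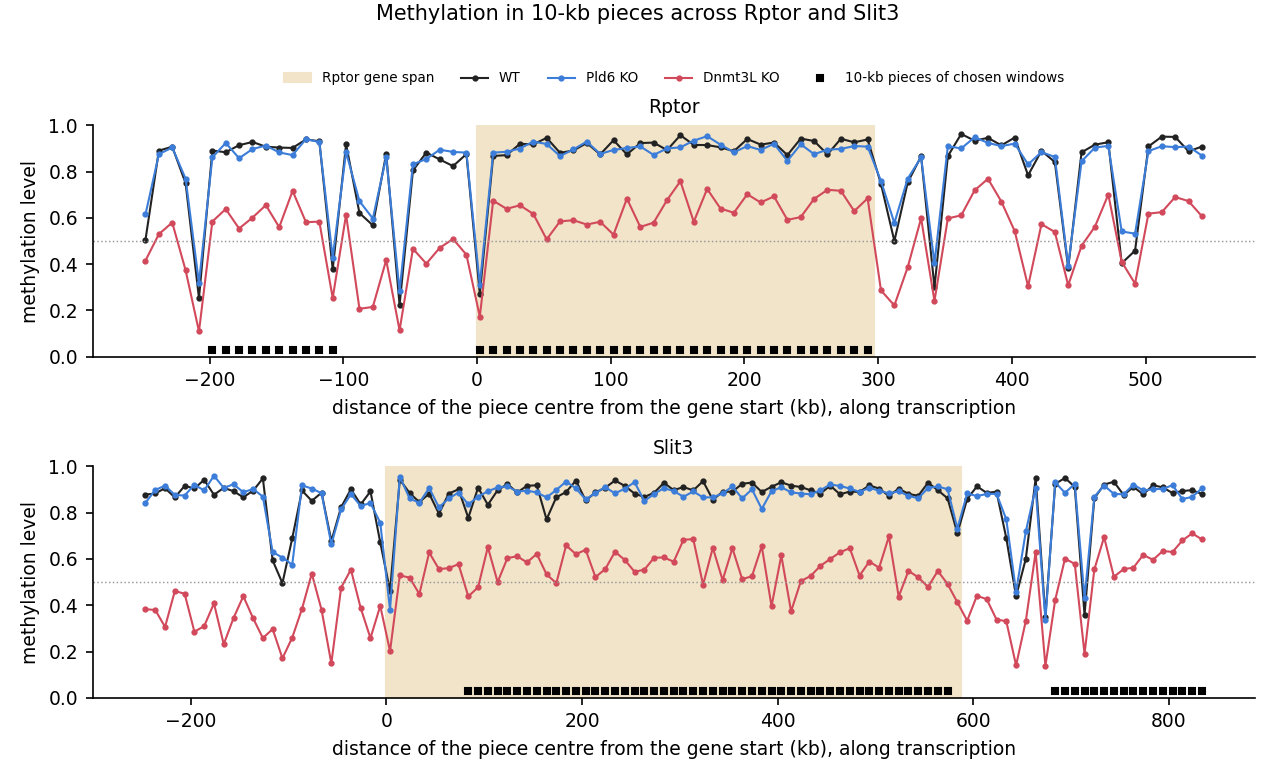
Methylation level (y axis, fraction) in 10-kb pieces against the distance from the gene start in kb along transcription, for Rptor and Slit3 with 250 kb on each side, in 1 library per genotype. The shaded area is the gene span, the dotted line is at 0.5, and the squares mark pieces of chosen windows. All 28 inner pieces of Rptor lie above 0.5 in Dnmt3L KO, and the pieces before the start of Slit3 have a median of 0.345.

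The share of genes in chosen windows differed with gene length. Of the genes on the eligible windows, 3.93% had their midpoint in a chosen window, 805 of 20509. The share was 0.691% for genes under 10 kb, 1.78% from 10 to 50 kb and 6.18% from 50 to 100 kb. It was 19.8% from 100 to 200 kb, 22.8% from 200 to 400 kb and 9.73% above 400 kb. Short genes seldom fill a window of 100 kb, which bears on the low end of this range. Among windows that a gene covers whole, 30.98% were chosen where that gene was 100 to 200 kb long, 20.5% from 200 to 400 kb, 11.2% from 400 to 800 kb and 2.55% above 800 kb.

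The level of whole gene bodies fell with gene length from the shortest class read, 50 to 100 kb. With the first 2 kb left out, 874 of 2405 genes of that class had a body level of at least 0.5 in Dnmt3L KO (36.3%), 438 of 1414 genes of 100 to 200 kb (30.98%), 116 of 613 of 200 to 400 kb (18.9%), 19 of 245 of 400 to 800 kb (7.76%) and 0 of 94 above 800 kb. The median body level fell from 0.452 to 0.271 from the first to the last of these classes in Dnmt3L KO, and from 0.871 to 0.816 in WT. Among the 10 longest annotated genes, 8 had no part in chosen windows, and these were Ptprd, Cntnap2, Lsamp, Lrp1b, Macrod2, Dlg2, Csmd1 and Nrxn3. Most of them act in neurons, in adhesion or at synapses. Their body levels in Dnmt3L KO lay between 0.197 (Lrp1b) and 0.283 (Macrod2 and Nrxn3), with WT between 0.744 and 0.845. The other 2, Gm20388 and Fgfr2, are annotated with spans of 4434882 and 2960900 bases that run over neighbouring genes.

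Chosen windows adjoined each other mostly where a gene ran across the boundary. Of the 921 windows, 387 (42.0%, 95% Wilson interval 38.9% to 45.2%) had a chosen window next to them. Of the windows 100 kb away from a chosen window 24.8% were chosen, 13.7% at 200 kb, 6.02% at 1 Mb and 4.99% at 5 Mb, against 3.87% of all eligible windows. The 921 windows formed 693 runs, of which 534 were single windows, 111 had 2, 33 had 3, 9 had 4 and 6 had 5. Of the 228 pairs of adjoining chosen windows, 224 (98.2%) had a protein-coding gene across their boundary, against 41.5% of adjoining eligible windows, and 186 (81.6%) had the same main gene. Chosen windows had a median gene cover of 100%, against 33.8% of eligible windows, so that a gene at the boundary goes with this cover. The part of gene cover in the adjoining of windows was not tested. Of the 48 runs of 3 or more windows, 25 held a single protein-coding gene and 23 held several.

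The 6 runs of 5 windows, equal in length, lay in large genes. Slit3 filled the run on chromosome 11, at 0.566 in Dnmt3L KO, 0.896 in WT and 0.891 in Pld6 KO. Shank2, a scaffold protein of excitatory synapses, made up most of the run on chromosome 7, followed by Cttn and Ppfia1, at 0.548, 0.875 and 0.864. Smyd3, a lysine methyltransferase, filled the run on chromosome 1, at 0.546, 0.914 and 0.904. The 3 values are in the same order in each of these runs.

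The other 3 runs were slightly lower in Dnmt3L KO. Cacna1c, which encodes a subunit of the L-type calcium channel, filled a run on chromosome 6 at 0.543, 0.892 and 0.896. Magi1, a scaffold at cell junctions, filled a further run there at 0.534, 0.861 and 0.874. Snx29 and Cpped1 on chromosome 16 had 0.525, 0.907 and 0.886. The 2 windows that flank each of the 6 runs, pooled per run, had Dnmt3L KO levels between 0.359 and 0.463. These runs end at windows under 0.5, so that lower flanks follow from the rule. Auts2 held the most chosen windows of any gene, 6, although its body as a whole had 0.492 in Dnmt3L KO. Agap1, Foxp1 and Slit3 were among the genes with 4 or 5 chosen windows.

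Windows next to a chosen window but themselves under the threshold had a lower median Dnmt3L KO level where the shared gene covered less of them. Where the main gene of the chosen window also covered at least 90% of the neighbour (179 windows), the median Dnmt3L KO level was 0.451 (SD 0.0505), with 0.851 in WT. Where it covered 10 to 90% (614 windows) the median was 0.384 (SD 0.0791), with 0.722 in WT. Where it covered under 10% (536 windows) the median was 0.348 (SD 0.0845), with 0.708 in WT. The spreads overlap. In the same order, total gene cover also differed, with medians of 100%, 64.3% and 50.7%. The median number of gene starts was 0, 1 and 1. The fall is therefore not assigned to sharing the gene, and the part of gene cover and gene starts in it was not tested.

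The chosen windows were found on all 19 autosomes. Chromosome 11 had the highest share, 6.73% (80 of 1189 eligible windows), and chromosome 3 the lowest, 1.21% (19 of 1565). Their median GC contents were 43.8% and 39.96%, and their median gene cover 50.2% and 11.9%. The share was 3.03% in the part from the centromere to 20% of the length of a chromosome and 5.10% in the last 20%. The median position of the chosen windows lay past 50% of the length on 15 of the 19 chromosomes. It ranged from 24.9% on chromosome 16 to 78.1% on chromosome 5.

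Several gene lists had no or few members in chosen windows. None of 39 Hox genes, 57 clustered protocadherin genes, 278 vomeronasal receptor genes, 67 histone genes, 71 cytosolic ribosomal protein genes, 49 keratin genes, 42 beta-defensin genes and 34 imprinted genes had its midpoint in one, against 3.93% of all genes and 0.691% of genes under 10 kb. Of 1128 olfactory receptor genes there was 1, Olfr1274-ps, in a window at 0.509 in Dnmt3L KO and 0.911 in WT. Many of these genes are short, and the median length was 3488 bases for Hox genes and 5994.5 for olfactory receptor genes. The windows of Hox and protocadherin genes had a median WT level of 0.202 and 0.261, so that a Dnmt3L KO level of 0.5 would have been above their WT level.

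Zinc finger and solute carrier genes had a share near the background. The windows of these lists had median Dnmt3L KO levels of 0.251 and 0.307, against 0.3001 for all protein-coding genes. The Zfp genes counted 12 of 376 (3.19%). Their highest windows were those of Zfp618, at 0.591 in Dnmt3L KO and 0.893 in WT, and Zfp609, at 0.588 and 0.873. The windows of Zfp750, at 0.586 and 0.914, and Zfp704, at 0.568 and 0.898, followed. Solute carrier genes counted 13 of 358 (3.63%), led by Slc25a51, Slc7a9, Slc10a7 and Slc39a11. Their windows had 0.606, 0.564, 0.559 and 0.543 in Dnmt3L KO. Shb covered 76.7% of the window of Slc25a51. Cytochrome P450 genes counted 2 of 100 (2%), Cyp17a1 and Cyp2ab1. The mitochondrial ribosomal protein genes counted 1 of 78 (1.28%), Mrps27, and the proteasome genes 1 of 38 (2.63%), Psmd1. The share was 3.93% over all genes, 0.691% for genes under 10 kb and 1.78% from 10 to 50 kb. Nothing is read from counts this small. Of 25 genes for DNA and H3K36 methylation, only Uhrf1 had its midpoint in a chosen window (4%, against 3.93% of all genes). Kdm4b covered 73.9% of this window, which had 0.501 in Dnmt3L KO and 0.706 in WT.

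Of 42 germline genes, 5 had their midpoint in a chosen window (11.9%), against 3.93% of all genes. The share was 1.78% of genes from 10 to 50 kb, 6.18% from 50 to 100 kb and 19.8% from 100 to 200 kb. Zbtb16, which encodes the stem cell factor PLZF, lay in a window at 0.599 in Dnmt3L KO, 0.907 in WT and 0.882 in Pld6 KO. The window of Tdrd9, a helicase of the piRNA pathway, had 0.543, 0.897 and 0.892. The window of Dmrt1, a regulator of spermatogonial differentiation, had 0.521, 0.788 and 0.822. That of Taf4b, a TFIID subunit of germ cells, stood at the threshold with 0.5, 0.925 and 0.891. Over the gene bodies, the Dnmt3L KO level was 0.580 for Zbtb16, 0.585 for Tdrd9, 0.585 for Dmrt1 and 0.498 for Taf4b. The remaining gene was Pld6, whose window lies mostly in Mprip. Pld6 itself, with 1 kb on each side, had only 0.168 in Dnmt3L KO and 0.444 in WT. The genes of the germline list had a median length of 44154 bases, against 17896 for all protein-coding genes, and the share differed with gene length in all genes. The windows of the germline list had a median Dnmt3L KO level of 0.349, against 0.3001 for all protein-coding genes.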

How the data were processed

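Genomic DNA of FACS-purified spermatogonia at postnatal day 7 was sequenced by the authors after post-bisulfite adaptor tagging, with 1 file each for WT, Pld6 KO and Dnmt3L KO. Reads were trimmed and mapped by the authors to mm10 with Bismark in unique regions, and whether duplicate reads were removed is not given in the sources used here. The authors deposited a list of CpG sites with 2 counts per site, methylated and unmethylated calls, and with a fraction, which was the methylated share of these calls throughout. Every site on the numbered and sex chromosomes lay at a CG of GRCm38, the assembly that mm10 names.

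Calls were summed over windows of 100 kb starting at base 1 of each autosome (Python 3.11.15, numpy 2.4.6, pandas 2.3.3). Windows needed at least 100 calls in each library, and a level was the methylated calls over all calls. Wilson intervals of 95% were computed on the calls and cover counting error only, since the calls of a read are linked. Shares of windows carry the same interval on the number of windows. GC content, CpG sites and soft-masked bases came from the RefSeq sequence of GRCm38, and genes from GENCODE for GRCm38. Gene cover used the spans of protein-coding genes, and the main gene of a window was the gene covering most of it. The computation was tested on simulated calls.

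The depth was 19289688 calls in Dnmt3L KO, 43757722 in WT and 64076569 in Pld6 KO. Named windows were the 12 with the highest Dnmt3L KO level among chosen windows with at least 500 calls, the longest runs (6 were equal in length), the 5 with the lowest WT level, 3 on each side of the threshold, and genes of listed families in chosen windows, up to 4 per list. The windows with the largest differences between WT and Pld6 KO, the longest genes and the windows without coding genes were added after values were seen. The members and gene lists were chosen with earlier results of these data known. No test between genotypes was made, because each had 1 library. Other coverage minimums, thresholds, window sizes, grids and ways of pooling were tried as alternatives.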

Additional observations from a re-analysis of the deposited data

How the results depend on the processing

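Under the alternatives, 21 values of the 10 results moved by more than the spread between windows (for a count by over 1.5 times, for a share or difference beyond its interval), and the others did not. None of the alternatives changed which side of the eligible windows the chosen ones lay on in WT level, GC content, CpG density, gene cover or repeat share. A threshold of 0.45 gave 2006 windows, a median Dnmt3L KO level of 0.495, 54.98% with a chosen window next to them and a difference of 0.117 between gene spans and the rest. A threshold of 0.55 gave 308 windows, 0.581, 29.2% and 0.148. A lower Wilson bound of at least 0.5 gave 489 windows, 33.3% with a neighbour and 0.141. Windows of 50 kb numbered 3064, with 55.5% and 0.104, and windows of 200 kb numbered 230, with 28.7% and 0.158. The mean of site levels gave 46.6% with a neighbour and a difference of 0.131, a grid shifted by 50 kb a difference of 0.129, and the spans of all annotated genes 0.148. The threshold and the window size set the count by construction. Depth limits the Dnmt3L KO level of a single window, with a median of 1016 calls per chosen window. No paired analysis was possible because each genotype had 1 library. Leaving out a library left a genotype without a value.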

Other observations

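On the X chromosome, which the choice of windows left out, 3 of 1451 windows that passed the minimum of 100 calls had a Dnmt3L KO level of at least 0.5 (0.207%). The median level of the X windows was 0.192 in Dnmt3L KO, 0.724 in WT and 0.695 in Pld6 KO. The 3 windows had 0.514, 0.563 and 0.529 in Dnmt3L KO, on 253, 247 and 274 calls. Their WT levels were 0.902, 0.947 and 0.732. A male cell holds 1 X chromosome.

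Among genes over 100 kb, some of those with the highest body level in Dnmt3L KO had no part in chosen windows. Others, such as Atp11a and Rptor, lay wholly in them. The grid of windows does not follow gene boundaries, and body levels leave out the first 2 kb. The part of either in this was not tested. Ssbp3 had a body level of 0.677 in Dnmt3L KO, 0.902 in WT and 0.886 in Pld6 KO, and none of its span lay in a chosen window. Traf3 and Wwp2 had 0.627 and 0.626 in Dnmt3L KO, with none of their span in a chosen window either. Mtor, the kinase that raptor and SIN1 (Mapkap1) bind, had a body level of 0.653 in Dnmt3L KO, 0.904 in WT and 0.880 in Pld6 KO, and 52.9% of its span was in a chosen window. These genes were named after their values were seen. Over all genes above 50 kb with enough calls, 1447 of 4771 (30.3%) had a body level of at least 0.5 in Dnmt3L KO.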
